A study of Homo sapiens with 2 samples.

Results

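The genes of the ISG15 conjugation pathway and the interferon-induced PARP9-DTX3L group were followed by RNA sequencing in SUM-159, a line of human breast cancer cells of the triple-negative type. The 9 genes were picked by name for their roles, and all 9 were found by Ensembl identifier among the 60880 rows of the deposited table. They were ISG15, UBA7, UBE2L6, HERC5, HERC6, USP18, DTX3L, PARP9 and PARP14. In 1 library the cells were labelled as deficient for PD-L1L2-SE, named for a super-enhancer that, by the title of the study, drives PD-L1 and PD-L2 together. The other library came from SUM-159 cells labelled sgVector. The labels give no further treatment, passage or clone for either library, so whether the deficient cells were a clone or a pool is not known here. There was 1 library per group, with no replicate check on any difference, and no p-value was computed. Values are RPKM, the reads of a gene per kilobase of its length and per 1000000 reads counted on genes. In bulk RNA a lower level in each cell and fewer cells that express a gene cannot be told apart. Intervals are 95% intervals from the recovered read numbers (exact Poisson for a level, Clopper-Pearson for a ratio) and cover counting error only.

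ISG15 is a small ubiquitin-like protein that interferon-treated cells make in large amounts and attach to many other proteins. UBA7 activates it, UBE2L6 carries it and the ligase HERC5 transfers it to newly made proteins, while the protease USP18 removes it and also restrains signalling from the type I interferon receptor. DTX3L, a ubiquitin ligase, works as a complex with PARP9, and PARP14 is a larger mono-ADP-ribosyltransferase of the same macrodomain group. The promoters of many such genes carry an interferon-stimulated response element (ISRE), the sequence bound by interferon-activated transcription factors.

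The response element is shown first because it is a sequence feature by which interferon-stimulated genes are known. Promoter windows from 250 bases before to 50 bases after the start were taken from RefSeq on GRCh38.p14, with 9 windows for 7 of the genes. UBA7 and USP18 had no entry. The ISRE core was searched on both strands as GAAA, any 2 bases and GAAA. It was present in 5 of the 9 windows (55.6%), 1 each of ISG15, HERC5, DTX3L, PARP9 and PARP14, against 3.57% of all 35116 windows of the same length. The DTX3L window and 1 PARP9 window overlap by 137 bases and hold the same core, which is thus counted in both. No match was found in the HERC6 window, in either UBE2L6 window or in the other PARP9 window. This says only that these letters are not there. The cores are written below with 10 bases on each side, in the direction in which they read GAAA, with the core in capitals.
ISG15 first core: catgcctcggGAAAGGGAAAccgaaactga
ISG15 second core: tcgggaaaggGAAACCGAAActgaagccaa
HERC5 core nearest the start: agctccagtgGAAAACGAAAcataatgttt
HERC5 upper core: aatcgaaaagGAAAAGGAAActgtaatgag
DTX3L core: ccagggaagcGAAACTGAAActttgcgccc
PARP9 core: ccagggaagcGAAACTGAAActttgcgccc
PARP14 core: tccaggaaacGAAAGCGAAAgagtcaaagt
The DTX3L and PARP9 lines are the same stretch of chromosome 3, since the genes run away from it on opposite strands. The start of DTX3L and the nearer start of PARP9 lie 38 bases apart, and this 1 core lies between base -6 and base 4 of DTX3L and between base -41 and base -32 of PARP9. The cores of ISG15 overlap each other and together run from base -113 to base -98. HERC5 held 3 cores, of which 2 overlap. The PARP14 core lies from base -29 to base -20, and PARP14 was also the only 1 of the 7 genes with a match to the gamma-activated site motif of TTC, any 3 bases and GAA (7.66% of all windows), at bases -40 to -32. The windows of the modifier gene and of the shared DTX3L start are given whole, since the values below turn on these genes. Capitals mark the ISRE core.
ISG15, chr1:1013247-1013546, plus strand: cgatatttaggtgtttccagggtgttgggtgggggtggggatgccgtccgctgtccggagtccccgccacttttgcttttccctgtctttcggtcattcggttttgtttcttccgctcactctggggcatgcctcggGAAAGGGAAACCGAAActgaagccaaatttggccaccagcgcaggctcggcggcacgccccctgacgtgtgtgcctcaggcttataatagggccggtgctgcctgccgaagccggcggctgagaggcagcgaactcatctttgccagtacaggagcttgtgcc
DTX3L, chr3:122564088-122564387, plus strand: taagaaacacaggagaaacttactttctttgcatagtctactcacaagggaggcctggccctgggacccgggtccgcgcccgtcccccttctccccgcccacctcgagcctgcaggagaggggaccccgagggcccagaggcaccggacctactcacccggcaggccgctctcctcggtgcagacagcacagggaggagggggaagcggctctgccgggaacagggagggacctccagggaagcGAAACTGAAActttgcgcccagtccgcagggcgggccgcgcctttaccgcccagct
HERC6, chr4:88378602-88378901, plus strand: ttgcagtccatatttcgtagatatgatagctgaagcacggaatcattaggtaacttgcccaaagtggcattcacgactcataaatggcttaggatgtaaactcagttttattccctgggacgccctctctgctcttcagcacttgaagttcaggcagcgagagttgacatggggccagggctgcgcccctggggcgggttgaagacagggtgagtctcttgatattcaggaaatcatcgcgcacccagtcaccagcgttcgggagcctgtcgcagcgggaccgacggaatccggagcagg
The HERC6 window is shown because this gene has no core there and stands next to HERC5, whose window has 3.

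Before the results, the labels were checked. The PD-L1 gene CD274 was 10.3-fold lower (7.59 to 14.2) in the deficient library, and the PD-L2 gene PDCD1LG2 4.48-fold lower (3.24 to 6.32). The deficient library held 16381546 reads on genes, against 16206675 for sgVector. For a triple-negative line the defining receptor genes PGR and ESR1 were at or near 0, with 0 reads in both libraries and 6 against 2 reads, and ERBB2 stood at 9.996 against 7.02 RPKM. The mesenchymal gene VIM had 390 against 746 RPKM and the epithelial gene CDH1 0 against 1 read. Other luminal markers were expressed, KRT18 at 21.1 against 28.9 RPKM, KRT8 at 15.5 against 18.5 RPKM, and FOXA1 and GATA3 at 1.09 against 1.33 and 0.853 against 1.38 RPKM. Leukocyte markers were scarce, with 490 against 361 reads over 13 genes, of which CD14 took 476 against 337. PTPRC had 0 against 4 reads, and CD3E and CD2 had 0 reads in both libraries. Of 8 endothelial and fibroblast markers 3 passed the floor, PDGFRB, DCN and ACTA2, at log2 ratios of 0.20, 0.24 and 0.30, with 1143 against 959 reads over the 7 in the table. Whether these amounts play a part in the values below was not tested.

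The modifier gene, HERC6 and the PARP group were higher in the deficient library. As deposited, the conjugation enzyme genes UBA7, UBE2L6 and HERC5 were level or lower. All 9 genes passed the floor, a mean of at least 1 RPKM over both libraries. The log2 ratio of the deficient over the sgVector library, with 0.1 RPKM added to each value, ran from -0.50 for USP18 to 1.09 for ISG15. Its median over the 9 genes was 0.49, the value of DTX3L, beside -0.05 over all 13552 genes past the floor and -0.03 over the 10576 protein-coding ones. At least 2-fold higher was 1 of the 9 genes, ISG15, against 3.03% of all genes and 2.10% of protein-coding genes, and at least 2-fold lower were 0 of 9, against 4.69% of all genes and 2.07% of protein-coding genes. HERC6 lay just under that mark at 0.9996 and passed it in 6 of 9 other settings, so the count was 1 or 2. At least 1.5-fold higher were 3 of 9, ISG15, HERC6 and PARP9, against 8.29% of all genes and 6.92% of protein-coding genes, and at least 1.5-fold lower were 0 of 9, against 12.6% and 8.67%. The count of 3 became 2, without PARP9, with a pseudocount of 1 RPKM or the GC and length correction, 4, with PARP14, under TMM scaling, and 1 with a floor of 5 RPKM. The counting interval of the ratio lay wholly above 1 for 5 of 9 genes, against 25.9% of all genes and 30.0% of protein-coding genes. As deposited, it lay wholly below 1 for 2, UBA7 and HERC5, against 32.6% and 35.4%. The upper bound for HERC5 was 0.990, close to no change. Intervals spanned no change for UBE2L6 and USP18.

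**Figure D1:**
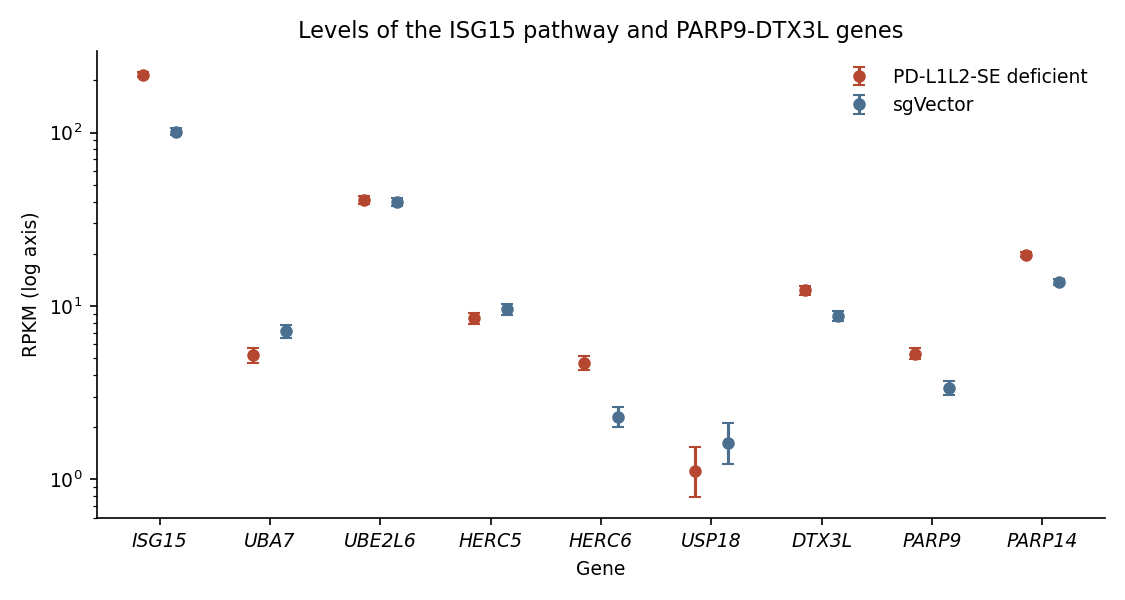
Level of each gene in RPKM on a log axis, with exact Poisson intervals, for the PD-L1L2-SE deficient library (left point of each pair) and the sgVector library (right point). ISG15 is highest in both libraries, at 216 and 101 RPKM, and USP18 lowest, at 1.12 and 1.62 RPKM.

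ISG15 (ENSG00000187608.9_5, hg19 chromosome 1 from 936518 to 949920) encodes the modifier itself. It stood at 216 RPKM from 3330 reads in the deficient library, against 101 RPKM from 1545 reads in the sgVector library. The deficient library was thus the higher, by 2.13-fold (2.01 to 2.27), and the intervals of the levels (209 to 223 and 96.3 to 106 RPKM) lay far apart. This was the largest ratio of the 9 genes, and 98.4% of protein-coding genes past the floor had a ratio at or below it. A processed pseudogene on the opposite strand shares 36 exon bases with ISG15 and had 0 reads in both libraries.

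UBA7 (ENSG00000182179.12_3, chromosome 3 from 49842640 to 49851379) encodes the activating enzyme, the first step of conjugation. Its level was 5.18 RPKM from 386 reads in the deficient library, against 7.13 RPKM from 525 reads in the sgVector library. UBA7 was 1.37-fold lower in the deficient library (1.20 to 1.57), and its level intervals did not overlap (4.68 to 5.73 and 6.53 to 7.76 RPKM). Only 13.7% of protein-coding genes had a ratio at or below that of UBA7.

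UBE2L6 (ENSG00000156587.15_3, chromosome 11 from 57319129 to 57335757) encodes the conjugating enzyme that takes ISG15 over from UBA7. It had 41.0 RPKM from 1476 reads in the deficient library, against 39.8 RPKM from 1417 reads in the sgVector library. The ratio was 1.03 with an interval from 0.957 to 1.11, and the intervals of the levels overlapped. UBE2L6 was the second most abundant of the 9 genes in both libraries.

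HERC5 (ENSG00000138646.8_3, chromosome 4 from 89378268 to 89427314) encodes the main ISG15 ligase of human cells, which sits on ribosomes. HERC5 measured 8.49 RPKM from 663 reads in the deficient library, against 9.54 RPKM from 737 reads in the sgVector library. It was 1.12-fold lower in the deficient library (1.01 to 1.25), and the intervals of its levels overlapped. HERC6 (ENSG00000138642.14_3, chromosome 4 from 89299891 to 89364263), the neighbouring gene, encodes a relative that acts as the ISG15 ligase in mouse. HERC6 measured 4.68 RPKM from 444 reads in the deficient library, against 2.29 RPKM from 215 reads in the sgVector library. It was 2.04-fold higher (1.73 to 2.42), an interval that includes 2-fold and does not overlap that of HERC5. The ratio of HERC5 to HERC6 per length was 1.82 in the deficient library, against 4.17 in the sgVector library, although the genes lie 14.0 kb apart on the same strand.

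USP18 (ENSG00000184979.9_2, chromosome 22 from 18632666 to 18660164) encodes the protease that takes ISG15 off its targets. It was the scarcest of the 9, at 1.12 RPKM from 39 reads in the deficient library, against 1.62 RPKM from 56 reads in the sgVector library. USP18 was 1.45-fold lower, with an interval from 0.947 to 2.24 that spanned no change, so no difference was detectable at this depth. The near-identical gene USP41 had 0 against 1 read, and the sources used here do not say how reads that match both genes were counted. USP18 values are therefore uncertain beyond the counting error.

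**Figure D2:**
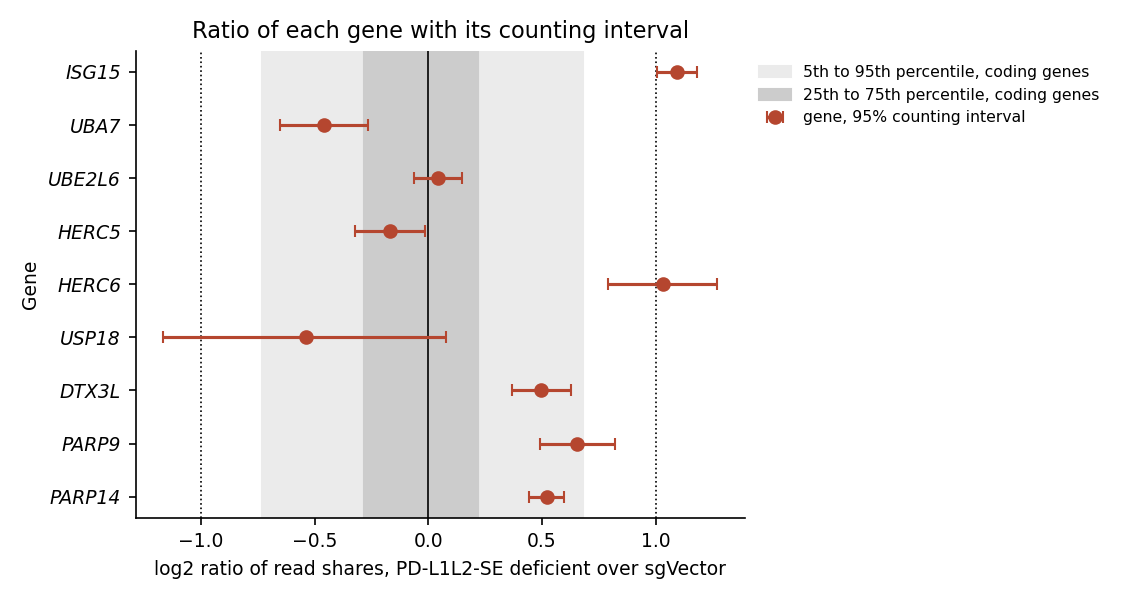
Ratio of read shares of each gene on the log2 scale, deficient over sgVector, with its Clopper-Pearson interval. Grey bands give the middle of the distribution of protein-coding genes past the floor, from -0.28 to 0.22 (25th to 75th percentile) and from -0.73 to 0.68 (5th to 95th), and dotted lines mark 2-fold. ISG15 and HERC6 lie to the right of the wider band.

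DTX3L (ENSG00000163840.9_2, chromosome 3 from 122283085 to 122294050) encodes the ligase subunit of the PARP9 complex. Its level was 12.3 RPKM from 1184 reads in the deficient library, against 8.73 RPKM from 830 reads in the sgVector library. DTX3L was 1.41-fold higher in the deficient library (1.29 to 1.54). Its partner PARP9 (ENSG00000138496.16_2, from 122246771 to 122283424 on the opposite strand) encodes the macrodomain subunit of the complex. PARP9 stood at 5.31 RPKM from 778 reads in the deficient library, against 3.38 RPKM from 489 reads in the sgVector library. It was 1.57-fold higher (1.40 to 1.77), an interval that overlaps that of DTX3L. The annotated exons of the 2 genes share 217 bases on opposite strands, 3.70% of the length of DTX3L and 2.43% of that of PARP9, and the sources used here do not say whether counting used strand. Reads from that stretch cannot be assigned with certainty.

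PARP14 (ENSG00000173193.14_4, chromosome 3 from 122399465 to 122449687) encodes a mono-ADP-ribosyltransferase that takes part in macrophage and interleukin-4 responses. PARP14 measured 19.8 RPKM from 3403 reads in the deficient library, against 13.8 RPKM from 2346 reads in the sgVector library. It was 1.44-fold higher (1.36 to 1.51). DTX3L, PARP9 and PARP14 thus had ratios with mutually overlapping intervals, and their order of level, PARP14 over DTX3L over PARP9, was the same in both libraries. DTX3L stood at 2.32 times the level of PARP9 in the deficient library and 2.59 times in the sgVector library. PARP14 stood at 3.73 and 4.09 times the level of PARP9 in the same order of libraries.

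Relative to the genes of its enzymes, the modifier gene was higher in the deficient library. Per length, ISG15 stood at 41.7 times the level of UBA7 in the deficient library and 14.2 times in the sgVector library. Against UBE2L6 the figure was 5.27 times in the deficient library and 2.55 times in the sgVector library. Against HERC5 it was 25.4 times in the deficient library and 10.6 times in the sgVector library. UBA7, UBE2L6 and HERC5 together had 154 reads per 1000000 in the deficient library, against 165 in the sgVector library, a ratio of 0.932 (0.883 to 0.985). UBE2L6 gave 1476 of the 2525 reads behind the deficient sum. Its log2 ratio was 0.04 as deposited and 0.27 with the GC and length correction. The ratio of the sum was not computed with that correction or with any other scaling. TMM scaling raised the median log2 ratio of all genes past the floor from -0.05 to 0.02. Whether the interval of the sum stays below 1 under such scaling is therefore not known here. PARP9, DTX3L and PARP14 together had 328 against 226 reads per 1000000, a ratio of 1.45 (1.39 to 1.51). All 9 genes took 714 reads per 1000000 in the deficient library, against 503 in the sgVector library, and without ISG15 they took 511 against 408.

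The order of levels differed between the libraries below the first 3 places. In the deficient library it ran ISG15, UBE2L6, PARP14, DTX3L, HERC5, PARP9, UBA7, HERC6 and USP18, and the level intervals of PARP9 and UBA7 and of UBA7 and HERC6 overlapped. In the sgVector library it ran ISG15, UBE2L6, PARP14, HERC5, DTX3L, UBA7, PARP9, HERC6 and USP18, with overlap between HERC5 and DTX3L and between HERC6 and USP18. HERC6 stood at 4.18 times the level of USP18 in the deficient library and 1.41 times in the sgVector library. Of the 36 pairs that the 9 ratios form, 26 had intervals that did not overlap. Among the 10 that did were ISG15 with HERC6, the 3 pairs within PARP9, DTX3L and PARP14, and all 3 pairs within UBA7, HERC5 and USP18. The rest crossed these groups, namely HERC6 with PARP9, UBE2L6 with HERC5 and UBE2L6 with USP18. No share over pairs of other genes was computed, and the intervals cover counting error only, so the count of 26 has no baseline here.

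Among the 7 genes with a promoter window, the ratios of those with and without a core overlapped. The 5 genes with a core in their window had log2 ratios from -0.17 for HERC5 to 1.09 for ISG15. The 2 genes with a window and no core were HERC6 at 0.9996 and UBE2L6 at 0.04. UBA7 and USP18 had no window, and DTX3L and PARP9 share 1 core. With so few genes, whether the core goes with the ratio cannot be decided and was not tested. HERC5, with 3 cores, was the 1 gene with a core whose interval, as deposited, lay below no change. Its upper bound was only -0.01 on the log2 scale. Over the other settings its log2 ratio ran from -0.19 to -0.09, and no intervals were computed for them.

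Base composition moved with the ratios of all genes, and the 9 genes fall in 4 of its 5 classes, with none in the lowest. With protein-coding genes in 5 equal classes of GC content, the median log2 ratio was 0.14 in the lowest class and -0.20 in the highest. ISG15, with a GC content of 63.4%, falls in the highest class, and so does UBA7 at 58.3%. After removal of the trends with GC content and length, ISG15 stood at 1.39, HERC6 at 0.99, PARP9 at 0.54, DTX3L at 0.45 and PARP14 at 0.38. UBE2L6 stood at 0.27 after that correction, against 0.04 before, and UBA7, HERC5 and USP18 at -0.28, -0.19 and -0.33. PARP14, PARP9 and DTX3L have GC contents of 42.4%, 43.4% and 44.2%, and PARP9 was short of 1.5-fold once corrected.

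**Figure D3:**
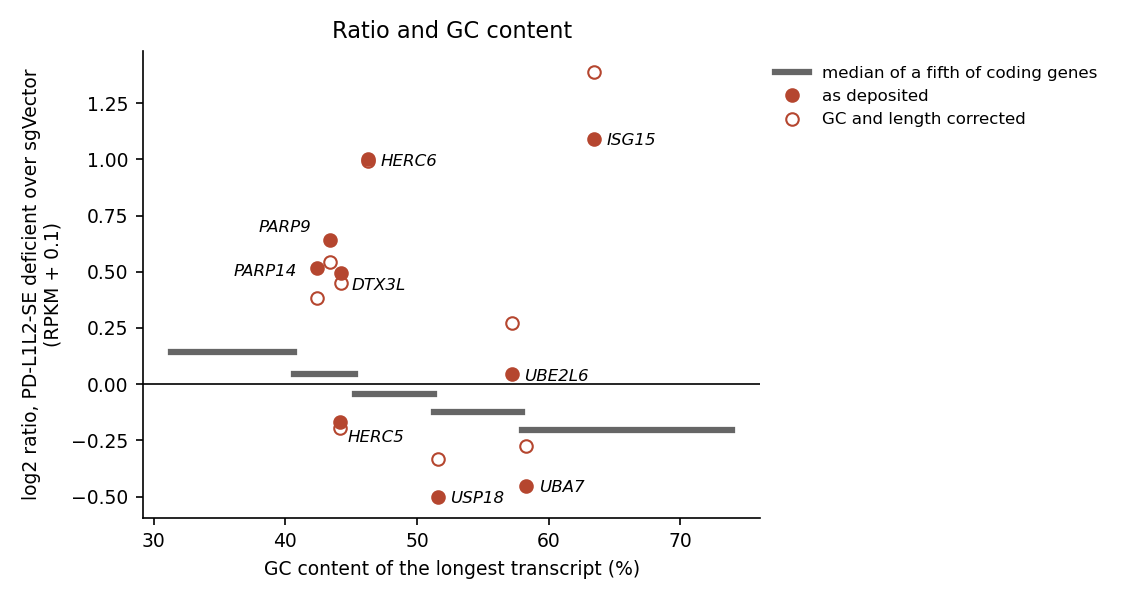
Log2 ratio of each gene against the GC content of its longest transcript, as deposited (filled) and after correction for GC content and length (open), with the medians of 5 equal classes of protein-coding genes as grey bars. The bars descend from 0.14 to -0.20, and ISG15 stands at 1.09 as deposited and 1.39 corrected.

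No gene beside the 9 on their chromosomes reached 1.5-fold higher. Among 36 expressed protein-coding neighbours, up to 3 on each side of a gene, the median log2 ratio was -0.25, with 15 above 0 and 21 below. At least 1.5-fold higher were 0, against 6.92% of protein-coding genes, and at least 1.5-fold lower were 8, against 8.67%. At least 2-fold lower was 1, against 2.07%. The highest were ZDHHC5, beside UBE2L6, at 0.45 and PPM1K at 0.44, near DTX3L at 0.49. Distances are between annotated gene spans, not from the starts used for the promoter windows. HES4, 0.965 kb from the annotated span of ISG15, stood at 0.01, and AGRN, 5.58 kb beyond its other end, at 0.19. The 6 neighbours of ISG15 ran from -0.73 (KLHL17) to 0.19. HERC5 and HERC6 lie between ABCG2 and PPM1K on 1 side, at -1.14 and 0.44, and PYURF and HERC3 on the other, at 0.30 and 0.12. KPNA1, 13.0 kb beyond PARP9, stood at 0.08, and HSPBAP1, 9.16 kb beyond PARP14, at -0.36, so the next expressed gene on either side did not share the higher values of PARP9, DTX3L and PARP14. UBA7 at -0.45 lay among lower genes, as its 6 neighbours had a median of -0.60, with TRAIP at -0.81, GMPPB at -0.79 and IP6K1 alone above 0 at 0.33. The neighbours of USP18 had a median of -0.33 and those of UBE2L6 -0.14. Whether position plays a part in the UBA7 and USP18 values was not tested.

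**Figure D4:**
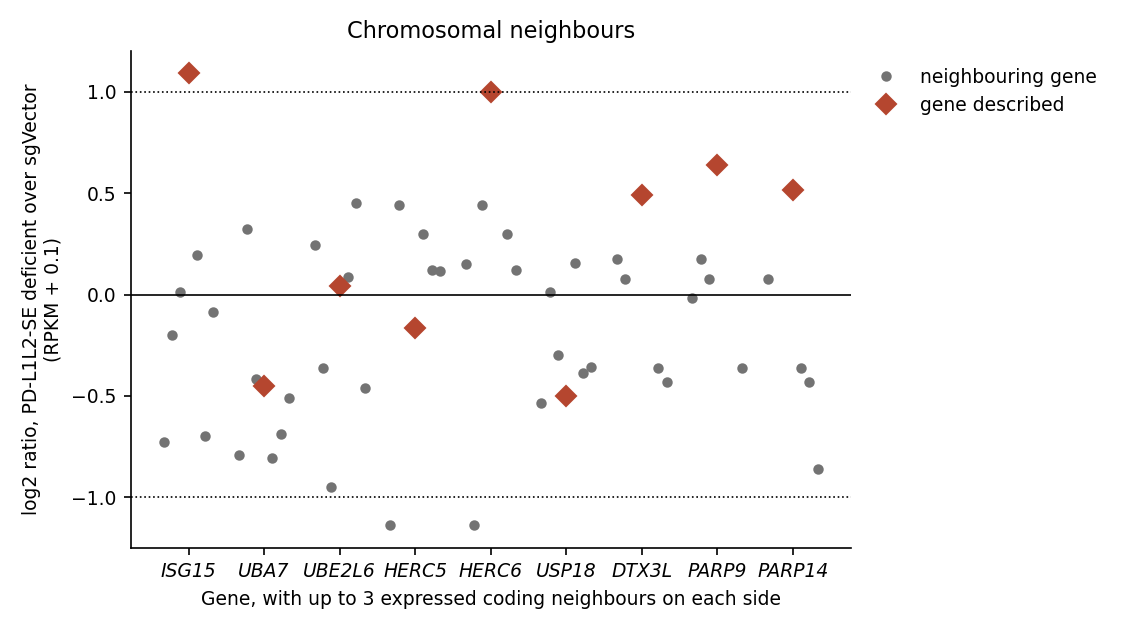
Log2 ratio of each gene (diamond) and of its expressed protein-coding neighbours (circles, in chromosomal order, up to 3 on each side), deficient over sgVector, with dotted lines at 2-fold. ISG15, HERC6, DTX3L, PARP9 and PARP14 stand above all their plotted neighbours, and UBA7 among its own.

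Other interferon-stimulated genes gave the setting for these values. Of 40 listed, 39 were matched by symbol, and DDX58 was not, so its level is not given. Of the 39, 32 passed the floor, with a median log2 ratio of 0.37, 7 at least 2-fold higher and 0 lower. RSAD2 and IFIT2 were highest, at 3.14 and 2.18, followed by RTP4, 4.21-fold higher by read share, and IFI35, IFI6 and IRF7 lowest, at -0.63, -0.45 and -0.34. ISG15 at 1.09 lay below IFIT1 (1.51) and OASL (1.43) and next to SAMD9 (1.18), and USP18 and UBA7 lay between IFI35 and IFI6. Among the genes that relay interferon signals, IFNAR1, JAK1, TYK2 and STAT2 stood at 0.46, 0.04, -0.26 and -0.32. None of these 4, all past the floor, reached 1.5-fold. IRF9, under the floor, had 34 reads in the deficient library against 66 in the sgVector library, 1.96-fold lower (1.28 to 3.06).

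Other genes of ISG15 biology differed little. Of 10 listed, 8 passed the floor, with a median of 0.09 and 0 past 1.5-fold. SKP2, a ligase subunit that marks USP18 for degradation, USP13 and ARIH1, a further ligase described for ISG15, were highest at 0.48, 0.29 and 0.23, and USP5, USP21 and USP16 lowest at -0.43, -0.40 and -0.20. The receptor chain genes ITGAL and ITGB2, which bind secreted ISG15 on leukocytes, had 1 against 0 and 3 against 4 reads. HERC2, HERC1, HERC3 and HERC4, the large and small relatives of HERC5 and HERC6, stood at 0.37, 0.24, 0.12 and -0.27, so HERC6 lay above all 4. Among 17 activating and carrier enzymes of ubiquitin and its relatives the median was -0.03 with 0 past 1.5-fold, led by UBA6 (0.35), UBE2D3 (0.26) and UBA2 (0.23), with UBE2E1 (-0.32) and UBE2L3 (-0.26) at the lower end. Among 11 other modifiers the median was 0.09, with UBB, SUMO3 and UFM1 at 0.40, 0.29 and 0.24 and NEDD8 and UBL5 at -0.93 and -0.16. No other modifier gene listed reached the ratio of ISG15.

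The remaining PARP genes did not move as a family with PARP9 and PARP14. Of 15 listed, 14 passed the floor, with a median of 0.03, whose sign changed with the GC and length correction, and with 7 above 0 and 7 below. ZC3HAV1, the zinc-finger antiviral protein of this family, was 3.24-fold higher (3.07 to 3.42), at 43.9 RPKM in the deficient library against 13.6 RPKM in the sgVector library, and was the 1 member at least 2-fold higher. PARP4 and PARP10 followed at 0.61 and 0.34, and PARP2, PARP12 and PARP3 were lowest at -0.68, -0.44 and -0.24. PARP15 had 0 reads in both libraries, for which the limit was set at 3 reads per library. Genes that remove ADP-ribose had a median of -0.01 over 5 past the floor, which became 0.25 with that correction, with OARD1, NUDT16, MACROD1, ADPRS and PARG at 0.43, 0.24, -0.01, -0.20 and -0.39. Of the DTX3L relatives, DTX3 and DTX2 stood at -1.56 and -0.21, and DTX4, under the floor, had 70 against 14 reads.

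**Figure D5:**
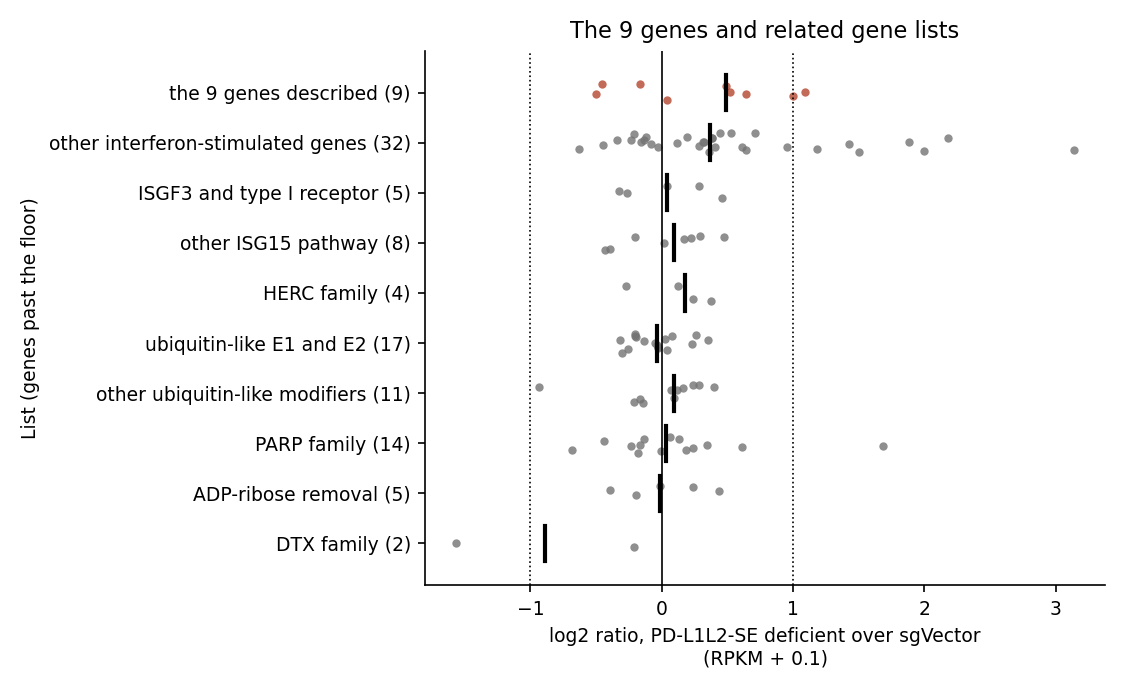
Log2 ratio, deficient over sgVector, of the 9 genes and of each related list, with 1 point per gene past the floor, a black bar at the list median and dotted lines at 2-fold. The 9 genes have a median of 0.49 and the other interferon-stimulated genes 0.37, while the lists of HERC, PARP, ubiquitin-like and ADP-ribose genes have medians between -0.03 and 0.18.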

How the data were processed

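RNA of SUM-159 cells was sequenced in 2 libraries, 1 per group. The submitters' processing notes name featureCounts 1.6.4 and Subread, with the builds hg19 and GRCh37. The sources used here give no annotation release, strand setting or handling of multi-mapping reads. The authors deposited RPKM values. Read numbers were recovered from their steps, and 100% came out whole to within 1e-06. The gene length in the deposited table is the summed exon length in bases, per the file headers. Of 60880 rows, 56858 matched GENCODE release 29 by identifier, used for gene types and GC content but for no coordinates. Pseudoautosomal copies on chromosome Y (41 rows) were not used.

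Ratios are log2 of (RPKM + 0.1), deficient over sgVector, where the mean of both libraries reached 1 RPKM. Fold changes are ratios of read shares with no pseudocount. Calls used 2-fold and 1.5-fold. The genes, lists and rules were chosen with earlier results of these data known. Named were all 9 genes, the 3 highest and 3 lowest of each list (all where 7 or fewer passed), nearest neighbours, and CD274 and PDCD1LG2. Genes named outside that rule, in particular IRF9, DTX4, IFIT1, OASL and SAMD9, were chosen after their values were seen. Protein sequences were not analysed here. Some listed genes are not reported here by name. GC and length trends were removed by lowess (share 0.3) on protein-coding genes. Code was tested on simulated data. Tools were matplotlib 3.10.9, statsmodels 0.14.6, scipy 1.17.1, pandas 2.3.3 and numpy 2.4.6 under Python 3.11.15.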

Additional observations from a re-analysis of the deposited data

How the results depend on the processing

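The log2 ratios of the 9 genes kept their sign in all 81 values from 9 alternatives, of which the ratio with no pseudocount was added after seeing the data, and 77 lay within the counting interval. The others were HERC6 with a pseudocount of 1 RPKM (0.79), which shrinks low genes, and ISG15 (1.39), UBE2L6 (0.27) and PARP14 (0.38) with the GC and length correction. The count of genes at least 2-fold higher was 2, with HERC6 added to ISG15, with a pseudocount of 0.01, centring on the median, TPM, TMM scaling, upper-quartile scaling or no pseudocount. It was 1 in the other settings. With a floor of 5 RPKM, which leaves out HERC6, PARP9 and USP18, the median was 0.27 and 1 gene was at least 1.5-fold higher. Over all genes, 411 at least 2-fold higher and 636 lower became 115 and 152 with that floor, 2575 and 3711 with no floor, and 222 and 219 for protein-coding genes alone. At 1.5-fold, 1123 higher and 1703 lower became 425 and 615 with the floor of 5 RPKM, 4833 and 6759 with no floor, and 732 and 917 for protein-coding genes alone. With the GC and length correction the medians of the PARP, ADP-ribose removal and mesenchymal marker lists changed sign, to -0.00035, 0.25 and -0.10, and the cause was not tested. No paired analysis was possible because each group had 1 library. Depth limits USP18, with 39 and 56 reads.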

Other observations

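The ISRE core was also common among the other interferon-stimulated genes, in 24 of the 33 with a promoter window. Of those past the floor, the 21 with a core had a median log2 ratio of 0.41, deficient over sgVector, and the 5 without had -0.13. Over all protein-coding genes past the floor that had a window, the median was 0.01 for the 350 with a core and -0.04 for the 8353 without. HERC6 (0.9996) lay above the highest of those 5 interferon-stimulated genes without a core, which stood at 0.71. The medians are over genes, each with a single ratio between the 2 libraries, and were not tested.

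DTX4, a relative of DTX3L that was under the floor, was 4.95-fold higher in the deficient library (2.76 to 9.51), while DTX3 was at 2.34 RPKM in the deficient library against 7.13 RPKM in the sgVector library. EPSTI1, an interferon-stimulated gene under the floor, had 32 reads in the deficient library against 4 in the sgVector library.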
